A study of Arabidopsis thaliana with 26 samples.

Results

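The FIS2 viewpoint is a HindIII fragment at the FIS2 gene, in the outer part of the right (long) arm of chromosome 2 of Arabidopsis thaliana, from which contacts with the rest of the genome were read by circular chromosome conformation capture (4C). It was chosen by its name in the sample labels, which gives 2 of the 26 libraries of the series, replicates A and B. The series holds 13 such viewpoints with 2 replicates each, all from the above-ground tissue of 14-day-old Col-0 seedlings grown on MS medium in long days, with no treatment or mutant. Seedling tissue is a mixture of cell types, so each value is an average over them. The labels give no separate growth batches for A and B, whereas the methods call them biological duplicates. The other 12 viewpoints are at the genes CKI1, FWA, AG, PHE1, FLC, MEA (fragments F6 and F8), AT1G51860, AT3G44380, SWN and YAO and at the heterochromatic knob hk4s. Of these, CKI1 lies on the same arm as FIS2, close to its end, and FWA lies at a similar place on the right arm of chromosome 4.

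In 4C, chromatin is crosslinked and cut, fragments that lie close together in the nucleus are ligated, and the partners of 1 fragment are amplified from it by inverse PCR and sequenced. FIS2 encodes a zinc finger subunit of a Polycomb Repressive Complex 2 (PRC2), which places trimethylation on lysine 27 of histone H3 (H3K27me3) and acts in the female gametophyte and the endosperm of the seed. In Arabidopsis nuclei the ribosomal gene arrays at the ends of the short arms of chromosomes 2 and 4 form the nucleolus organizers, and the heterochromatin around the centromeres gathers in chromocenters from which the gene-rich arms emanate. The arm opposite FIS2 is therefore a short arm with a nucleolus organizer at its tip.

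The viewpoint fragment was chr2:14990477-14993872 (TAIR10, 3396 bp), 11.4 Mb from the centromere on an arm of 16.1 Mb. The sequences that set what was read are those from the primers to the sites at which ligation takes place, with the restriction site in capitals (HindIII for the first, DpnII for the second).
Primer 1 to the HindIII site, chr2:14993835-14993872, plus strand: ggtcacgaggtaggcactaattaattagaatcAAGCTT
Primer 2 to the DpnII site, chr2:14992666-14992693, minus strand: gccataaacattgaattagactgtGATC
Primer 1 is the first 20 bases of its line and primer 2 the first 25 bases of its line. Reads from primer 1 left the fragment through the HindIII site at its telomere-side end, inside FIS2, and the circle closed at a DpnII site, so that the 1207 bp between these sites were the part of the fragment that was amplified around. FIS2 (AT2G35670, chr2:14992565-14996756, plus strand) begins in the fragment, which holds its first 1308 bp and the bases upstream of it. The fragment also overlaps AT2G35658 (chr2:14990325-14990935) by 459 bp and an antisense RNA gene, AT2G08745. Within 10 kb lie MOR1, which encodes a microtubule-associated protein, the ubiquitin gene UBQ7, the cellulose synthase-like gene CSLA07, CTF2A, the acyl-CoA oxidase gene ACX5, AT2G35640, AT2G35680 and 3 genes of long noncoding RNAs (AT2G35637, AT2G08740 and AT2G08750).

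In the published seedling data that the authors deposited beside the reads, the FIS2 gene lay in chromatin without measured transcription. The share of nucleotides covered by transcription was 0% in the viewpoint fragment and 0% in its telomere-side neighbour (chr2:14993867-14996733), which holds most of the rest of FIS2. H3K27me3 covered 11.0% of the viewpoint fragment and 45.3% of that neighbour. The centromere-side neighbour (chr2:14987197-14990482), with CTF2A and part of CSLA07, had 52.0% covered by transcription, 68.5% by H3K36me3, a mark of transcribed gene bodies, and 9.49% by H3K27me3. The viewpoint fragment lies between these neighbours, next to a transcribed gene on one side and the untranscribed FIS2 gene on the other.

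The HindIII ends of the 66846 fragments received 1624548 reads in replicate A and 666633 in replicate B. Only fragments at least 1000 bp from the viewpoint and 100000 bp from a centromere entered, which left 65061 fragments with 842415 reads in A (51.9%) and 356466 in B (53.5%). Among the 26 libraries the kept reads ran from 273441 to 3560836, so that FIS2 A was near the middle and FIS2 B among the shallower ones. Of the kept fragments, 82.2% in A and 71.7% in B had reads, against 35.0% to 88.7% over all libraries. Values below are RPM per fragment, the reads scaled to a fixed total of kept reads (reads per 1e6). The reads were PCR copies and carried no molecular identifiers, which makes counts larger than the number of independent ligations, and the 2 replicates measure only the spread between these libraries. FIS2 was digested with DpnII and sequenced in the first batch, together with CKI1, FWA, AG, PHE1 and FLC, whereas MEA F6 and MEA F8 share the batch but not the second enzyme, and the other 5 viewpoints share neither. Comparisons with all 12 other viewpoints therefore mix batches and enzymes.

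Close to the viewpoint, contacts fell steeply with distance on both sides and alike in both replicates. At 1 to 10 kb the mean level was 4998 RPM per fragment in A and 4569 in B. It was 1891 and 1635 at 10 to 50 kb, 483 and 437 at 50 to 100 kb, and 262 and 255 at 100 to 250 kb. Farther out it was 106 and 103 at 500 to 1000 kb and 69.9 and 69.7 at 1000 to 2000 kb. The 3 fragments with the highest levels were chr2:14981955-14985194, over UBQ7, AT2G35637 and AT2G35640 (9652 reads in A, 4820 in B), chr2:14997792-15002277, over AT2G35680 and ACX5 (6696 and 2375 reads), and chr2:14985189-14987202, in CSLA07 (5941 and 2534 reads). They carried 8 to 13 genomic DNA reads each, against a median of 9 over all fragments. The distance filter left out the viewpoint fragment and the fragments that touch it, which together hold nearly all of FIS2. The highest levels could therefore not lie on FIS2 itself, and these 3 fragments were on both sides of it.

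**Figure D1:**
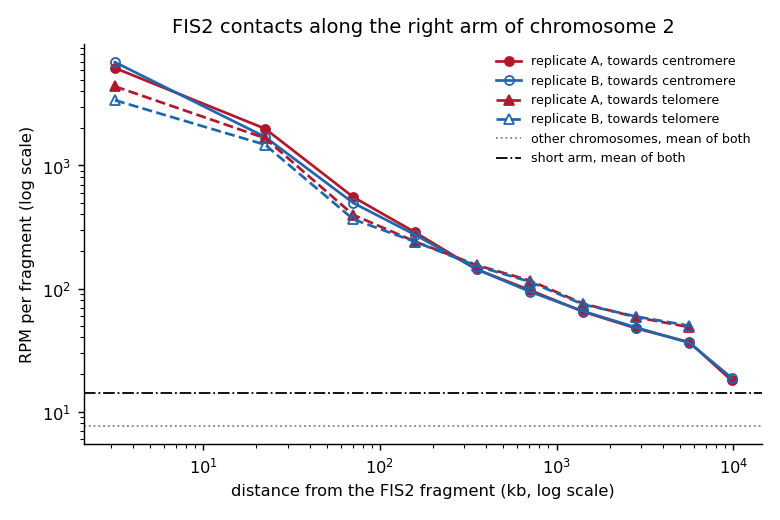
Mean RPM per fragment (log scale) against the distance from the FIS2 fragment (kb, log scale, middle of each interval), for replicates A (filled) and B (open), towards the centromere (circles) and towards the telomere (triangles). Lines mark the means on the short arm (14.2) and on other chromosomes (7.64); both sides decline together, and beyond 0.5 Mb the telomere side lies above the centromere side in both replicates.

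The sides differed in opposite directions close to the viewpoint and farther out. At 50 to 100 kb the centromere side was higher, with 553 RPM per fragment in A and 496 in B against 397 and 365 on the telomere side, and at 1 to 10 kb, over 3 and 6 fragments, it had 6199 and 6918 against 4398 and 3394. At 250 to 500 kb the telomere side was higher, with 155 and 152 against 143 and 143. Over the whole 2 Mb these differences averaged out, with 153 and 148 RPM per fragment on the centromere side and 152 and 142 on the telomere side. From 2 to 4.5 Mb, where both sides could be followed, the centromere side had 46.0 RPM per fragment in A and 46.6 in B and the telomere side 56.7 and 57.5. The telomere side was thus higher by 0.30 on the log2 scale in each replicate. Genomic DNA reads did not move with this difference, with means of 9.43 per fragment on the centromere side and 9.45 on the telomere side. With 2 replicates of 1 viewpoint the difference between sides was not tested.

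The share of kept reads within 2 Mb, 32.4% in A and 30.9% in B, was the second lowest of the 13 viewpoints. The other 12 averaged 39.9%, and hk4s, the knob, was highest with 57.6%. The difference of FIS2 from the others was -8.24 percentage points (exact permutation of the viewpoint label, two-sided p = 0.308). With 1 viewpoint against 12 such an exact permutation test cannot go below p = 0.0769, so it gives a place in the order and not a call. Among the 5 other DpnII viewpoints of the first batch, which averaged 32.5%, the difference was -0.86 points (exact permutation, two-sided p = 0.5, smallest possible 0.167). The decay on the log-log scale from 1 kb to 10 Mb had a slope of -0.70 in A and -0.68 in B, against -0.73 for the mean of the others (exact permutation, two-sided p = 0.538) and -0.69 for the DpnII viewpoints of its batch (exact permutation, two-sided p = 1). The steepest decay was that of SWN (-0.80) and the shallowest that of FLC (-0.54).

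On the rest of its own arm FIS2 stayed in contact over the whole length. Beyond 2 Mb the arm had 37.9 RPM per fragment in A and 38.4 in B, and its 61 windows of 100 fragments ran from 11.4 to 67.9 RPM per fragment in A and from 11.9 to 68.4 in B. The order of the windows was nearly the same in both replicates (Spearman rho 0.991). The 5 highest windows were chr2:17708743-17895587 (67.9 in A, 68.4 in B), chr2:12621073-12782581 (65.8 and 65.5), chr2:18095885-18278882 (67.7 and 63.4), chr2:17353900-17557795 (62.2 and 66.6) and chr2:17143621-17353905 (60.9 and 65.6). Of these, 1 lies 2.21 Mb from the viewpoint towards the centromere and the other 4 lie 2.15 to 3.10 Mb towards the telomere. All 5 were gene-rich, with 52 to 64 protein-coding genes each, and H3K27me1, a mark of silent heterochromatin, covered 1.47% to 3.94% of their nucleotides, against a mean of 10.3% over the 61 windows. No single fragment gave more than 6.36% of the reads of any of them.

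CKI1, a histidine kinase gene that acts in female gametophyte development, gives the arm from its other end. The window of 100 fragments centred on the CKI1 viewpoint had 53.4 RPM per fragment in FIS2 A and 56.0 in FIS2 B, and the window centred on the FIS2 viewpoint had 42.1 in CKI1 A and 49.4 in CKI1 B. These were below the highest windows of FIS2 and within the range of its arm. At the CLF gene, which encodes a PRC2 methyltransferase and lies on this arm towards the centromere, FIS2 had 38.7 and 39.8 RPM per fragment, against 16.9 and 15.5 from CKI1. Along the arm the profile of FIS2 was above that of CKI1 up to the region about midway between the viewpoints and below it near CKI1. In the edgeR quasi-likelihood test described below, 68 of the 84 windows of the arm were higher in FIS2 than in CKI1, against 14.3% of all windows, and 6 were lower, against 10.5%, and these 6 were the last 6 windows of the arm (chr2:18668041-19698289). In the last window, chr2:19552071-19698289, FIS2 had 45.5 RPM per fragment in A and 47.8 in B, so that the contacts of FIS2 reached the end of its arm.

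The opposite, short arm of chromosome 2 was contacted less than the own arm and more than other chromosomes. Its level was 14.0 RPM per fragment in A and 14.5 in B, against 66.9 and 65.5 on the own arm and 7.53 and 7.74 on other chromosomes. Its share of the kept reads was 2.64% in A and 2.74% in B. The own arm exceeded it by 2.26 on the log2 scale in A and 2.18 in B. With each viewpoint set against the opposite arm of its own chromosome, this was the lowest ratio of the 13. The highest was that of hk4s (3.72). The own-arm level is a mean over the fragments of the arm, which measures 16.1 Mb for FIS2 and 3.96 Mb for hk4s. The part of arm length in this rank was not tested. FIS2 was -0.63 from the mean of the others (exact permutation, two-sided p = 0.231, smallest possible 0.0769) and -0.33 from the mean of the 5 other DpnII viewpoints of its batch (exact permutation, two-sided p = 0.167, the smallest this design allows). With the first 2 Mb around the viewpoint left out, the ratio was 1.44 in A and 1.41 in B, ninth of 13, in a range from 2.65 (YAO) to -0.10 (SWN).

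The level on the opposite arm was above that on other chromosomes in FIS2 and not in CKI1. On the log2 scale the short arm exceeded other chromosomes by 0.89 in FIS2 A and 0.91 in FIS2 B. CKI1, on the same chromosome, was the lowest viewpoint with -0.12 in A and -0.04 in B, and FWA, whose opposite arm also carries a nucleolus organizer, had 0.79 in both replicates. Over all 13 viewpoints FIS2 was sixth, -0.01 from the mean of the others (exact permutation, two-sided p = 1). The 5 viewpoints above it were those of the later batch, which all lie within 4.17 Mb of a centromere and were not digested with DpnII. Within the first batch FIS2 was 0.43 above the mean of the 7 others (exact permutation, two-sided p = 0.25, smallest possible 0.125), and among DpnII viewpoints 0.38 above the 5 others (two-sided p = 0.333 in the exact permutation, smallest possible 0.167). Position, batch and enzyme cannot be told apart here.

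**Figure D2:**
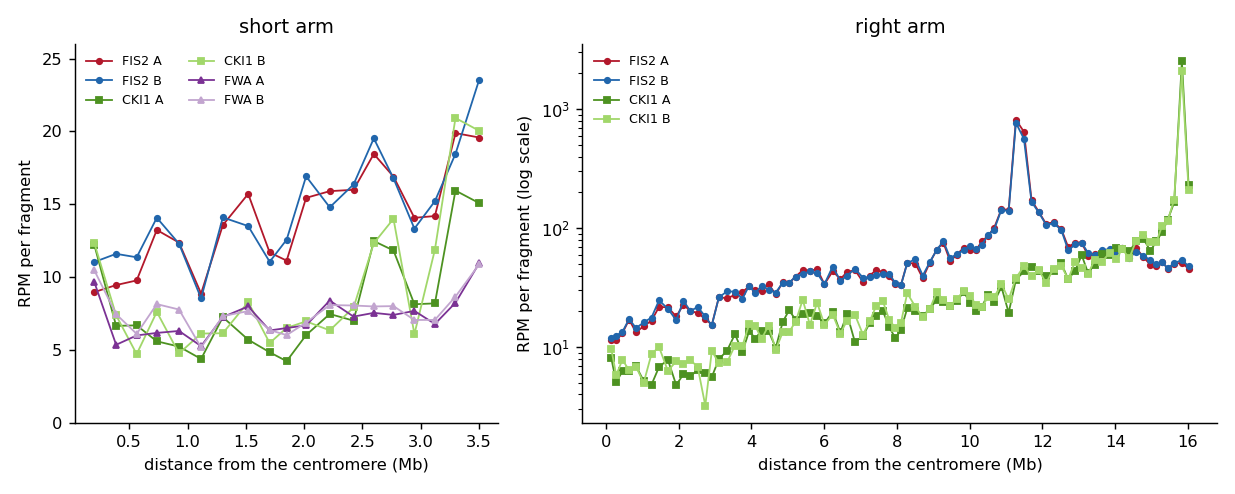
RPM per fragment in windows of 100 HindIII fragments of chromosome 2 against the distance of the window from the centromere (Mb), for the short arm (left panel, linear scale) and the right arm (right panel, log scale), with both replicates of FIS2 and CKI1 and, on the short arm, FWA. On the short arm FIS2 lies above CKI1 and FWA in most windows and meets CKI1 at the tip; on the right arm FIS2 peaks at its own position and CKI1 at the arm's end.

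Along the short arm the level of FIS2 was highest at the tip and lowest next to the centromere. In intervals of 0.5 Mb from the tip it was 18.99 RPM per fragment in A and 19.98 in B, then 15.5 and 15.5, 16.3 and 16.5, 12.7 and 13.3, 14.1 and 13.2, 11.7 and 12.3, and 8.91 and 10.9 from 3 to 3.5 Mb. The tip was thus 0.52 on the log2 scale above the rest of the arm in A and 0.55 in B. This contrast was sixth of the 13 viewpoints, highest in CKI1 (1.11) and lowest in AT1G51860 (-0.64), and it was 0.19 above the mean of the others (exact permutation, two-sided p = 0.846). The level itself was the highest of all viewpoints, of which CKI1 is the only other on this chromosome, both at the tip, where FIS2 averaged 19.5 and CKI1 followed with 16.3, and on the rest of the arm, where FIS2 averaged 13.4 and the other viewpoints 6.70. The gene content of the intervals was 0.739 annotated genes per fragment at the tip, 0.215 at 2.5 to 3 Mb and 0.327 in the last interval, where FIS2 was lowest, and H3K27me1 covered 9.66%, 29.8% and 41.4% of the nucleotides there. The tip interval had a mean of 16.8 genomic DNA reads per fragment and a median of 9. From 3 to 3.5 Mb, next to the centromere, genomic DNA averaged 11.5 reads, and FIS2 no longer stood above hk4s, which had 9.95 RPM per fragment against 9.91 for FIS2.

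The 5 highest windows of the short arm were all in its outer part: chr2:1-215645 (19.6 in A, 23.5 in B), chr2:215640-406241 (19.9 and 18.5), chr2:927495-1094860 (18.5 and 19.5), chr2:757581-927500 (16.9 and 16.8) and chr2:1094855-1274876 (16.0 and 16.4). The lowest window was chr2:2405705-2578569, with 8.87 and 8.54 RPM per fragment. The first window carried 28.4 genomic DNA reads per fragment, against 8.17 to 13.6 in the other 18, with a median of 10 over its fragments. Its strongest fragment gave 6.24% of its reads in A and 6.20% in B, within the range of the other 4 windows (4.02% to 8.57%). Without fragments that had over 10 times the median of genomic DNA reads, the tip of the arm was 0.537 above the rest on the log2 scale in FIS2 (mean of A and B), against 0.538 with them. The part of genomic DNA in the level of this window alone was not tested.

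The levels of windows were compared between viewpoints by edgeR's quasi-likelihood test on read sums, with TMM scaling and Benjamini-Hochberg adjustment over all 649 windows tested. Against the mean of the other 12 viewpoints, 329 windows differed at an adjusted p of 0.05, which is 50.7% of those tested, with 104 higher in FIS2 (16.0%) and 225 lower (34.7%). Without FIS2 A the lower ones were 146 and the higher ones 101, and without FIS2 B they were 154 and 100. All 84 windows of the own arm and 18 of the 19 windows of the short arm were higher, while only 2 windows of other chromosomes were. Against the other 5 DpnII viewpoints of the first batch, 309 windows differed (47.6%), with 15.7% higher and 31.9% lower, and the same numbers of windows, 84 and 18, were higher on the own and the short arm, with none elsewhere. Against FWA, 207 windows differed (31.9%), with 15.7% higher and 16.2% lower, again 84 and 18 on chromosome 2 and none elsewhere. Of the viewpoints compared, only CKI1 also lies on chromosome 2. On that chromosome these contrasts therefore set contacts within a chromosome mainly against contacts between chromosomes. The higher calls there do not by themselves set FIS2 apart, whose short arm over other chromosomes was sixth of 13. Since the contrasts share the FIS2 libraries, they are not independent of each other. In each, the windows that were lower lay mostly on the arms that carry the other viewpoints, for example all 79 windows of the right arm of chromosome 4 against FWA.

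The spread in these tests is that between replicates of 1 viewpoint, and it says whether the FIS2 libraries differ from others, not whether FIS2 differs from viewpoints in general. When the replicates were averaged and the spread between viewpoints was used (limma), 59 windows were higher against the other 12 viewpoints, all of them on the own arm, and 0 of the 19 of the short arm passed, with 81 of all windows at an unadjusted p under 0.05. Against the 5 DpnII viewpoints 0 of the 649 windows passed in limma, with 71 at an unadjusted p under 0.05 there and 326 in edgeR.

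On the short arm the log2 difference against CKI1 was smallest at the tip and next to the centromere. The 3 windows with the largest fold off the own arm were chr2:1503155-1680196, with 15.4 and 16.9 RPM per fragment in FIS2 and 6.02 and 6.96 in CKI1 (log2 fold 1.35, adjusted p = 9.53e-05 in edgeR's quasi-likelihood test with Benjamini-Hochberg adjustment), chr2:2578564-2784365 (12.4 and 12.3 against 5.23 and 4.76, log2 fold 1.33, adjusted p = 8.92e-06) and chr2:1274871-1503160 (15.9 and 14.8 against 7.47 and 6.34, log2 fold 1.18, adjusted p = 4.97e-05). In all 3 the replicates of the viewpoints did not overlap, which adds no support, since these windows were picked by their fold. The share of all windows without such overlap was not counted. Of the 19 windows, 14 were higher in FIS2 than in CKI1, against 14.3% of all windows. With 1 FIS2 replicate left out it was 11 (without A) or 10 (without B). The 5 that did not pass were chr2:1-215645, chr2:215640-406241 and chr2:757581-927500 in the outer arm and the 2 next to the centromere. At the tip FIS2 had 19.6 and 23.5 RPM per fragment and CKI1 15.1 and 20.04 (log2 fold 0.33, adjusted p = 0.320), and the replicates of the viewpoints overlapped. The window next to the centromere, chr2:3311275-3503420, was the one short-arm window that passed in no contrast. It had 8.97 and 11.0 RPM per fragment in FIS2, 12.2 and 12.3 in CKI1 and 9.65 and 10.5 in FWA, and 13.6 genomic DNA reads per fragment. The part of genomic DNA in this level was not tested.

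Against the other 12 viewpoints the largest folds off the own arm were also on the short arm, in chr2:927495-1094860 (log2 fold 1.17), chr2:1094855-1274876 (1.10) and chr2:1-215645 (1.06). The first of these was also highest against the DpnII viewpoints (1.10) and against FWA (1.22), which had 7.54 and 7.99 RPM per fragment there. It was followed there by chr2:1503155-1680196 (1.09 and 1.18) and chr2:215640-406241 (1.02 and 1.12). The largest negative folds were on the short arm of chromosome 4 against the other 12 (chr4:1648272-1829932, which holds the hk4s viewpoint, -1.69) and on its right arm against the DpnII viewpoints (chr4:10313073-10469437, which holds AG, -2.15) and FWA (chr4:12966394-13178297, which holds FWA, -6.87). In the window of FWA the level from FIS2 was 10.1 and 9.33 RPM per fragment, above the 7.26 and 7.07 of the middle part of that arm, in which it lies.

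With the other chromosomes contacts of FIS2 rose from the centromeres towards the arm ends on all 8 arms. The share of kept reads on other chromosomes was 41.3% in A and 42.4% in B, rank 4 of 13 (exact permutation of the difference from the others, 5.35 points, two-sided p = 0.615). Among the DpnII viewpoints of its batch the difference was -0.31 points (exact permutation, two-sided p = 0.833). The arms ranged from 6.18 RPM per fragment in A and 6.18 in B, on the short arm of chromosome 4, to 8.38 and 8.68 on the right arm of chromosome 3. Without 3 fragments of that arm that had over 10 times the median of genomic DNA reads it had 7.86 and 8.07, and the left arm of chromosome 1 was then highest. The left arm of chromosome 1 had 8.17 and 8.53 and its right arm 6.85 and 7.15. With each arm cut into 3 parts of equal length, the outer part was above the inner part in every arm and both replicates, and the outer parts had 9.28 to 10.7 RPM per fragment in A and 9.56 to 11.1 in B. The inner parts varied more, from 3.91 and 3.67 on the short arm of chromosome 4 to 7.03 and 7.71 on the right arm of chromosome 3. Without the same 3 fragments the latter was 5.29 and 5.67, within the range of the other arms. Over all other chromosomes the outer part exceeded the inner by 0.97 on the log2 scale in A and 0.96 in B, sixth of 13. This was 0.13 above the mean of the other viewpoints (exact permutation, two-sided p = 0.769), between CKI1 (1.60) and AT1G51860 (-0.14), and -0.11 from the mean within the first batch (exact permutation, two-sided p = 1).

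**Figure D3:**
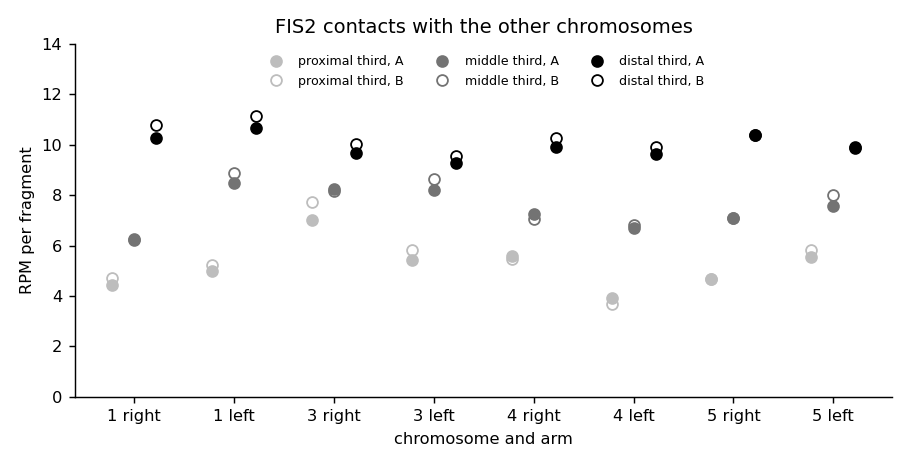
Mean RPM per fragment of FIS2 contacts in the inner (proximal), middle and outer (distal) part of each arm, 3 parts of equal length, of the other chromosomes, for replicates A (filled) and B (open). In every arm the outer part, at 9.28 to 11.1 RPM per fragment, is highest and the inner part is lowest.

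The short arm of chromosome 4, which carries the other nucleolus organizer, was the lowest of the 8 arms, with 9.64 and 9.92 RPM per fragment in its outer part. The short arm of chromosome 2 had 17.4 and 18.0 in its outer part.

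The highest window on other chromosomes, chr3:13974511-14268526 next to the centromere, had 31.5 RPM per fragment in A and 37.2 in B, but 41.9% and 41.7% of its reads came from 1 fragment. That fragment, chr3:14193385-14203799, had 1497 genomic DNA reads against a median of 9 per fragment. The next 4 were chr1:1-211628 (16.0 and 15.9), chr5:26364455-26589493 (15.6 and 15.7), chr5:26154608-26364460 (15.9 and 15.0) and chr3:23263080-23459830 (14.5 and 15.5). All 4 began or ended within 611 kb of a chromosome end, carried 8.28 to 9.43 genomic DNA reads per fragment and were gene-rich, with 54 to 79 protein-coding genes and H3K36me3 on 40.9% to 53.9% of the nucleotides, against a mean of 33.0% over the 548 windows. The median window had 7.37 RPM per fragment in A and 7.51 in B.

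Few windows of other chromosomes stood out in FIS2 against the other viewpoints. Those higher than the mean of the other 12 were chr5:25445510-25614922 (13.3 in A, 12.1 in B, log2 fold 0.39, adjusted p = 0.0395 in edgeR's quasi-likelihood test) and chr5:26154608-26364460 (15.9 and 15.0, log2 fold 0.44, adjusted p = 0.0102), both in the outer right arm of chromosome 5, which carries no viewpoint. Neither passed against the 5 DpnII viewpoints, against CKI1 or against FWA, nor in limma with the spread between viewpoints. CKI1 had 15.2 RPM per fragment in A and 9.49 in B in the first of these windows. In the second it had 19.4 and 19.9, above FIS2. Against CKI1, 161 windows differed (24.8%), of which 11 higher and 62 lower ones were on other chromosomes. Over all arms the windows lower than in CKI1 fell from 68 to 32 without FIS2 A and to 29 without FIS2 B, and the higher ones from 93 to 77 and 75. The 3 largest negative folds against CKI1 were at chromosome ends: chr1:30241695-30424683, with 14.0 and 15.5 RPM per fragment in FIS2 and 37.4 and 41.0 in CKI1 (log2 fold -1.38), chr3:1-184188 (12.5 and 14.7 against 34.6 and 36.3, -1.35) and chr3:23263080-23459830 (14.5 and 15.5 against 38.6 and 39.0, -1.34). In each, the replicates of the viewpoints did not overlap, which again adds no support, since these windows were picked by their fold. The last of these was also among the 5 highest windows of FIS2, so that FIS2 was high at this chromosome end for its own profile and low beside CKI1.

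The contacted fragments were described by the genome annotation and by published maps of histone marks and transcription that the authors deposited with the reads, the annotation as the number of features per fragment and the maps as the share of a fragment's nucleotides covered. H3K36me3 and H3K4me2 lie on transcribed genes, H3K27me3 is the Polycomb mark, and H3K27me1 and H3K9me2 mark silent heterochromatin. Over 2191 windows of 25 fragments on other chromosomes the level of FIS2 went with gene features. For rho, the level was the mean over fragments of log2 of the reads plus 1, without scaling to RPM. Spearman's rho was 0.57 in A and 0.55 in B for genes, 0.57 and 0.55 for H3K4me2, 0.54 and 0.52 for H3K36me3 and 0.50 and 0.50 for transcription. It was negative for heterochromatin, with -0.44 and -0.43 for transposable elements, -0.37 and -0.36 for H3K9me2 and -0.34 and -0.35 for H3K27me1. For H3K27me3 it was 0.12 and 0.11, and for genomic DNA reads 0.09 and 0.08. The relative position of a window on its arm gave 0.68 and 0.69, above any of these features. The windows share a library and neighbouring windows share position, so these are descriptions.

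**Figure D4:**
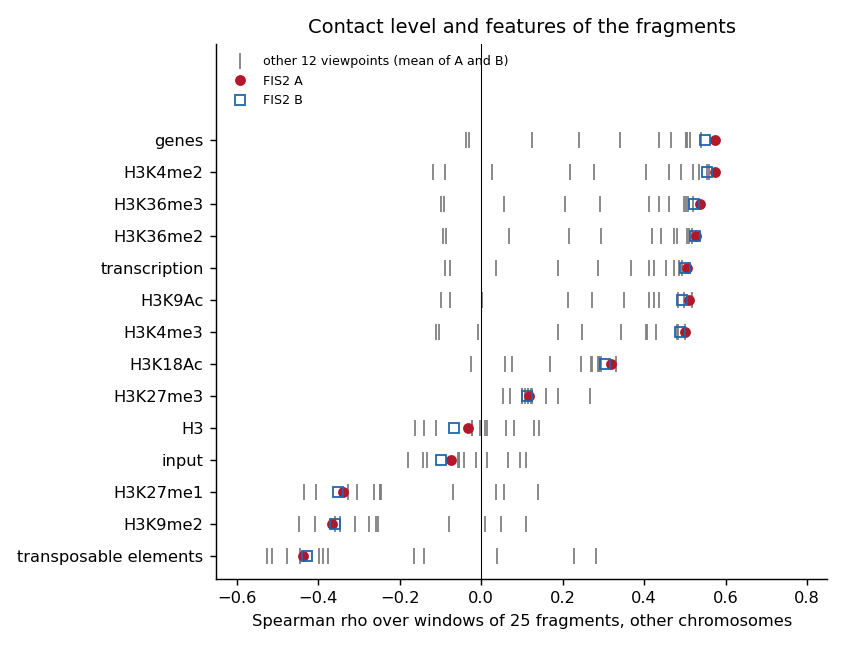
Spearman's rho (x axis) for each feature (y axis) over 2191 windows of 25 fragments on other chromosomes. It relates the mean over fragments of log2 of the reads plus 1 to the feature's share or count. FIS2 A is shown as filled circles, FIS2 B as open squares and the means of the other 12 viewpoints as grey ticks. The FIS2 mean of A and B is the highest of the 13 for genes, H3K36me3, H3K36me2, H3K4me2 and transcription, and in the middle for H3K27me3.

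Among the viewpoints FIS2 had the highest mean rho for genes (0.56), H3K4me2 (0.56), H3K36me3 (0.53), H3K36me2 (0.53) and transcription (0.50). In single libraries MEA F6 B and MEA F8 B were above both FIS2 replicates for all 5, with 0.60 and 0.59 for H3K36me3, so that the rank of FIS2 rests on the lower A libraries of MEA. Those A libraries of F6 and F8 (0.44 and 0.41 for H3K36me3) had reads on 44.3% and 35.6% of kept fragments. Their B libraries had reads on 58.5% and 55.8%, and FIS2 A and B on 82.2% and 71.7%. The part of depth in this rank was not tested. CKI1 followed closely for H3K4me2 (0.56), and PHE1 was lowest for H3K36me3 (-0.10). The difference of FIS2 from the mean of the others was 0.22 for H3K36me3 (exact permutation, two-sided p = 0.308), -0.15 for H3K27me1 (two-sided p = 0.462 in the exact permutation) and -0.01 for H3K27me3 (exact permutation, two-sided p = 0.769). Among the DpnII viewpoints of its batch these differences were 0.23, -0.20 and 0.03 (exact permutation, two-sided p = 0.333 for each). For H3K27me3, the mark that PRC2 itself sets, FIS2 was seventh of 13, in a range from 0.05 (PHE1) to 0.27 (AT3G44380).

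In 5 groups of windows of equal size ordered by H3K36me3, the level was 4.41 RPM per fragment in A and 4.53 in B in the lowest group and 9.21 and 9.46 in the highest. By H3K27me1 it was 8.17 and 8.55 in the lowest group and 5.08 and 5.21 in the highest. By H3K27me3 the order was not monotonic, with 5.84 and 6.02 in the lowest group, 8.47 and 8.74 in the middle and 7.24 and 7.41 in the highest. Genomic DNA stayed between 9.26 and 10.1 reads per fragment over all these groups.

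The values differed between parts of the arms. Outside the inner parts of the arms (1448 windows) rho was 0.27 in A and 0.26 in B for H3K36me3, 0.32 and 0.30 for genes, -0.03 and -0.05 for H3K27me1 and -0.13 and -0.13 for H3K27me3. In the inner parts (743 windows) it was 0.49 and 0.46 for H3K36me3 and 0.33 and 0.32 for H3K27me3, so that the sign for the Polycomb mark differed between the outer and inner arm. The short arm of chromosome 4 gave the highest values, with 0.74 and 0.77 for H3K36me3 and 0.52 and 0.51 for H3K27me3 over 107 windows. On the own arm beyond 2 Mb (248 windows) rho was 0.68 and 0.65 for genes, 0.57 and 0.55 for H3K36me3, 0.40 and 0.39 for H3K27me3 and -0.56 and -0.57 for H3K27me1. The relative position of a window on that arm gave 0.77 and 0.79, above any of these features. The part of position and of distance from the viewpoint in these values was not tested.

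Of the 110 highest windows of 25 fragments on other chromosomes in each replicate, 57 were shared (51.8%). They had 16.8 RPM per fragment in A and 17.8 in B, against 7.53 and 7.74 over all windows, and 55 of them lay in an outer arm part, which holds 33.4% of all windows. H3K36me3 covered 46.2% ± 10.8 of them (SD over 57 windows) against 33.0% ± 16.98 over all 2191, and transcription 24.4% ± 7.45 against 16.7% ± 10.5. H3K27me1 covered 3.82% ± 5.96 against 8.55% ± 12.7. H3K27me3 differed little, with 11.1% ± 5.04 against 10.9% ± 7.11. The 57 windows were set against all windows and not against those of the outer arm parts alone. The part of arm position in these feature values was not tested. A fragment whose genomic DNA reads exceeded the median over 10-fold was present in 1 of the 57 and in 14 of all 2191. Against 57 of 2191 over all arms, the share of windows among them was highest on the left arm of chromosome 1 (12 of 318, 3.77%) and the right arm of chromosome 5 (13 of 361, 3.601%). It was lowest on the left arm of chromosome 3 (2 of 293, 0.683%). The counts per arm are small, and their differences were not tested. The short arm of chromosome 4 held 2 of 107 (1.87%).

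Genes of the Polycomb system were located in this profile with windows of 100 fragments centred on each. Their place is given as a percentile among the 548 windows of other chromosomes. Of the 6 PRC2 genes on other chromosomes, 5 were above the median window in both replicates. The share of all 548 windows above the median in both was not counted, so the counts per list have no background beside them. MSI1, a WD40 subunit of PRC2, was highest with 12.5 RPM per fragment in A and 13.8 in B (percentiles 96.4 and 98.2). Of the many loci in the lists it was the one in the top 5% in both replicates. The share of all 548 windows in the top 5% in both was not counted. MSI1 lies in the outer part of the right arm of chromosome 5, which averaged 10.4 RPM per fragment in each replicate. SWN, a PRC2 methyltransferase, had 11.7 and 11.3, and MEA, the methyltransferase that acts with FIS2 in the seed, had 10.4 and 10.9. FIE, the WD40 partner of these enzymes, had 7.76 and 7.71, and EMF2, a zinc finger protein related to FIS2, 6.22 and 7.10. The levels of the other viewpoints off that chromosome ran from 4.64 to 13.9 at MSI1, so that the level of FIS2 there lay within their range.

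Of the 8 genes of PRC1 and associated proteins on other chromosomes, 5 were above the median in both replicates, led by RING1B, a RING finger protein, with 11.5 RPM per fragment in A and 11.8 in B. LHP1, which binds H3K27me3, had 6.73 and 7.56. Of 9 known Polycomb targets, 2 were above the median in both replicates, SEP3 (8.31 and 9.88) and FLC (8.80 and 8.66). AG had 6.46 and 6.52, FT 5.85 and 5.54, and FUS3, a seed regulator, was lowest with 4.18 and 4.60. The median percentile was 72.8 in A and 70.4 in B for PRC2 genes and 30.8 and 34.5 for targets. For the mixed list of PRC1 and associated genes, which includes VIN3 and VRN5, it was 63.8 and 70.7. The lists are short and differ in where their genes lie on the arms, and the part of arm position in these percentiles was not tested. Among the targets, the windows of PHE1 (chr1:24191034-24362219) and FT (chr1:24247057-24438658) overlap, so they are not separate loci.

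**Figure D5:**
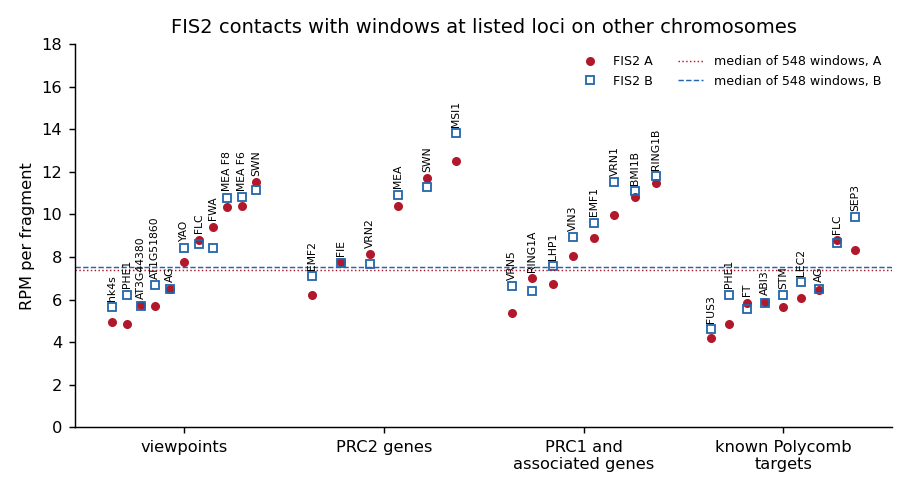
RPM per fragment of FIS2 A (filled circles) and B (open squares) in windows of 100 fragments centred on each listed gene or viewpoint of other chromosomes, grouped by list, with lines at the median window of A and of B. MSI1 is highest, with 12.5 in A and 13.8 in B, and FUS3 lowest, with 4.18 and 4.60.

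The windows at the other viewpoints did not form a group. Of the 11 on other chromosomes, 6 were above the median in both replicates. MEA F6 and MEA F8 are both among these 6, with nearly the same window (chr1:452325-615920 and chr1:456360-617834), so that 1 region is counted more than once. SWN (11.5 and 11.1), MEA F6 (10.4 and 10.8) and FWA (9.43 and 8.40) were among the higher ones, and hk4s, the knob, had 4.96 and 5.64.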

How the data were processed

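The 26 libraries of 13 viewpoints (2 replicates each) were used as the authors deposited them, 1 row per HindIII fragment. Per the submitters' processing notes and the methods, reads were aligned with Bowtie 0.12.7 to TAIR10, and reads with several matches were shared between them by weight. The deposited expected counts of reads at fragment ends, and of genomic DNA reads, are therefore not all whole and carry no filter or normalization. The signal columns that the authors added give the percent of a fragment's nucleotides covered by published reads, and their annotation columns are deposited as scores, the number of annotated features per fragment. Genomic DNA and these columns are the same in every library.

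Fragments at least 1000 bp from the viewpoint and 100000 bp from a centromere were kept, and reads at HindIII ends were scaled to RPM by the kept reads. Kept reads ran from 273441 to 3560836 per library, which sets the precision of sparse fragments, so levels were averaged over windows of 100 or 25 fragments within arms. Windows were tested with edgeR 4.0.16 (quasi-likelihood, R 4.3.3) on rounded sums, at an adjusted p of 0.05, and with DESeq2 1.42.0 and limma 3.58.1 as alternatives. Single measures were compared by exact permutation of the viewpoint label (SciPy 1.17.1). The scripts were tested on simulated data. Regions named are the viewpoint fragment and genes within 10 kb, the 5 highest windows of each class, the 3 called windows with the largest fold in each direction off the own arm, and windows at listed genes. The highest fragments, the 2 chromosome 5 windows and the windows next to the centromere or viewpoint were named after their values were seen. The viewpoint, the lists and the tests were chosen with earlier results of these data known.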

Additional observations from a re-analysis of the deposited data

Results flagged for a closer look

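In several measures both FIS2 replicates lay on one side of 0 and both replicates of another viewpoint on the opposite side. These differences between viewpoints were not tested. The opposite arm over other chromosomes, on the log2 scale, averaged 0.90 in FIS2 and -0.0782 in CKI1. The outer over the inner arm parts of other chromosomes averaged 0.96 in FIS2, -0.0784 in PHE1 and -0.14 in AT1G51860. The tip of the short arm of chromosome 2 over the rest of that arm averaged 0.54 in FIS2, -0.26 in PHE1 and -0.64 in AT1G51860. The rho of contact level with H3K36me3 averaged 0.53 in FIS2, -0.10 in PHE1 and -0.091 in AT1G51860. The rho with H3K27me1 averaged -0.35 in FIS2, 0.14 in PHE1, 0.0566 in AT1G51860 and 0.0371 in hk4s. AT1G51860 and hk4s differ from FIS2 in batch and second enzyme, and PHE1 and CKI1 in neither.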

How the results depend on the processing

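In the permutation results 75 of 83 alternatives kept the direction and 8 turned it. The main exact permutation tests, with 1 viewpoint against 12, cannot go below p = 0.0769, so none of these differences could pass at 0.05. The decay slope difference (0.043) was -0.00258 with fragments from 10 kb. The difference in the opposite arm over other chromosomes (-0.01) was 0.154 with reads at both kinds of ends, 0.428 within the first batch and 0.378 within DpnII viewpoints. The share on other chromosomes (5.35 points) was -0.308 within DpnII viewpoints, the outer over inner arm parts (0.13) -0.114 within the first batch, and the H3K27me3 rho difference (-0.01) 0.0124 within the first batch and 0.0281 within DpnII viewpoints. The cause was not tested. Windows of 25 fragments gave 754 calls of 2593 against the other 12 viewpoints (379 higher, 375 lower), 695 against the DpnII viewpoints (374 and 321), 255 against CKI1 (201 and 54) and 708 against FWA (340 and 368), where windows of 100 gave 104 and 225, 102 and 207, 93 and 68, and 102 and 105. With the spread between viewpoints, limma gave 59 and 0 calls in the contrasts with several viewpoints. Without FIS2 replicate A or B the counts were 247 to 254, 237 to 245, 104 to 109 and 198, and the lone replicate was assumed to vary like the other groups. The count against CKI1 was 161 with both, 109 without FIS2 A and 104 without FIS2 B, and 11 and 10 short-arm windows were then higher in place of 14. Except against FWA, most of the calls lost without a replicate were of windows lower in FIS2. The same leave-outs gave differences of -8.99 to -7.48 points in local share, 0.033 to 0.053 in decay slope, -0.67 to -0.59 in own over opposite arm, -0.02 to -0.0072 in opposite arm over other chromosomes, 4.79 to 5.91 points in the share on other chromosomes, 0.12 to 0.13 in outer over inner arm parts, 0.17 to 0.20 at the tip, 0.21 to 0.23 for the H3K36me3 rho, -0.16 to -0.15 for H3K27me1 and -0.0136 to -0.0087 for H3K27me3. The replicate letter stands for a lane within a batch and is no pairing in the labels. Deviations of same-letter libraries correlated with a mean r of 0.041 over 28 pairs in the first batch and 0.11 over 10 pairs in the later one, and all 8 and all 5 viewpoints correlated better on average with their own letter, a hint from the data. With the letter as a replicate block, 328, 312, 166 and 207 windows were called, against 329, 309, 161 and 207 without it. Over the alternatives with windows of 100 fragments, 16 to 18 of the 19 short-arm windows were higher than in the other 12 viewpoints, 17 to 18 than in the DpnII viewpoints, 10 to 15 than in CKI1 and 13 to 18 than in FWA, limma excepted, where it was 0. The median log2 fold of all windows was -0.25 against the other 12 and -0.18 against the DpnII viewpoints, so folds there are relative to that shift. Of 44 alternatives of FIS2's own levels, 13 moved them by more than the spread between replicates and 0 turned them. Depth limits single fragments, of which 82.2% in A and 71.7% in B had reads.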
